A study of Mus musculus with 6 samples.

Results

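The genes described are 4 interleukin receptor subunits, Il18r1, Il10ra, Il4ra and Il6st, and the kinase gene Jak2. They are 5 of 10366 genes with a probe set that the platform annotation ties to a single gene symbol, and each is read by 1 probe set. They were selected from earlier results of these same arrays, by their difference between the arrays that carry the Zeb2-KO label and WT. That difference is therefore a description here, and no test of it is given. The cells were LKS-Slam cells, bone marrow cells gated for Kit, Sca-1 and SLAM surface markers so that hematopoietic stem cells are strongly enriched. In the group labelled Zeb2-KO the mice were Zeb2 fl/fl Mx1-Cre (Zeb2Δ/ΔMx1-Cre after deletion). The control mice were C57Bl/6 WT. Mice of both groups received pIC, an inducer of interferon, at an age of 6 weeks, and their marrow was taken 8 weeks later, at 14 weeks. Mx1-Cre is switched on by interferon in every cell that responds to it, not in blood cells alone. The label of the WT mice names no Cre, so effects of Cre and of the deletion cannot be told apart. Each group had 3 arrays, each from another bone marrow sample.

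Cytokine receptors are built from chains that bind a ligand and chains that carry the signal. Il18r1 encodes the chain that binds interleukin-18, which signals through Myd88 and the NF-kB pathway and not through Janus kinases. Il10ra and Il4ra encode the ligand-binding chains for interleukin-10 and interleukin-4. Il6st encodes gp130, the signalling chain shared by interleukin-6, interleukin-11, LIF and oncostatin M. These 3 chains work through Janus kinases, which phosphorylate STAT transcription factors. Jak2 is the kinase bound to the receptors for erythropoietin and interleukin-3, and it is needed for red cell precursors to respond to erythropoietin.

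Upstream sequences are shown for the pair of genes whose groups separated, Il18r1 (higher) and Il4ra (lower), because ZEB proteins are known to bind E-boxes of the letters CACCTG. The sequences are RefSeq's, from build GRCm38.p6, in which 4 of the 5 genes had an entry, 6 start sites in all. Each window holds the 250 bases before a start site, 5′ to 3′ on the + strand. Capitals mark CACCTG or, read from the other strand, CAGGTG, and TTCNNNGAA, a palindrome known as the core of STAT sites. The Il18r1 window, before the third of its start sites, is at chr1:40465756-40466005 and Il4ra at chr7:125552021-125552270.
Il18r1: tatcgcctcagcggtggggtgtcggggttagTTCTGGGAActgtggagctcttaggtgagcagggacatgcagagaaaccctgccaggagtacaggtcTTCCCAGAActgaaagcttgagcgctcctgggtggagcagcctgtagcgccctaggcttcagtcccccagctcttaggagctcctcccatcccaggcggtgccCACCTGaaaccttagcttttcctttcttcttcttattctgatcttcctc
Il4ra: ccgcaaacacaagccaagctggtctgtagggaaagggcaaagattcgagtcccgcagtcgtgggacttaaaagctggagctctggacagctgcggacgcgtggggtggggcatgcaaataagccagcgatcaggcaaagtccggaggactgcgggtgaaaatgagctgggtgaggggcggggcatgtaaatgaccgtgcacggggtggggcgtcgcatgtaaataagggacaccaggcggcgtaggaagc

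The Il18r1 window holds CACCTG once, starting 49 bases before the start site, and TTCNNNGAA at 219 and 152 bases before it. CACCTG or its complement is found in 17.22% of 32851 such windows and TTCNNNGAA in 7.02%. The windows of the other 2 start sites of Il18r1 hold neither CACCTG or its complement nor TTCNNNGAA, so the window shown is the only one of Il18r1 with either. These shares are per window, and Il18r1 had more windows in which a match could fall than Il4ra, which had 1. The other 2 windows of Il18r1 overlap and share 1 stretch, TTCTTTTGAA, of TTC and GAA with 4 bases between. That spacing is held by 5.85% of all windows. The windows of Il4ra, Il6st and Jak2 held none of these letters, nor did any of the 6 hold CAGGTA or TACCTG, which 10.05% of windows hold. A match is only a description of these letters. The windows also differ in base composition, from 40.8% G and C at the first start site of Il18r1 to 80.8% at that of Jak2, against a median of 52.4% over all windows.

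Values below are log2 intensities, and a difference is the mean of the Zeb2-KO-labelled arrays less that of WT. Zeb2 itself read higher, not lower, under its knockout label, by a difference of 1.48 (2.8-fold) and without overlap of the groups. Its probe set ran from 7.79 to 9.13 in the Zeb2-KO-labelled arrays and from 6.58 to 7.51 in WT (limma adjusted p = 0.581), and the labels do not say whether that probe set lies in the deleted part. Every direction therefore rests on the labels. An adjusted p under 0.05 was reached by 2 of the 14610 probe sets (0.0137%). Of the gene group, 2 of 5 had groups without overlap, Il18r1 higher and Il4ra lower. Over all probe sets 13.2% had no overlap, 6.9% higher and 6.26% lower. Where nothing else is said, n is 3 arrays a group.

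Il18r1 was the gene with the largest difference of the 5. The Zeb2-KO-labelled arrays read 7.17, 7.17 and 7.62, and the WT arrays 5.50, 5.56 and 5.81. Every Zeb2-KO-labelled array was above every WT array, with a gap of 1.36 between the nearest arrays of the groups. In linear intensity these are 144, 144 and 197 against 45.2, 47.2 and 56.0. The group levels were 7.32 ± 0.26 and 5.62 ± 0.16 (SD), a difference of 1.70 (SE 0.28), or 3.24-fold.

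Il4ra was lower. It read 7.76, 7.44 and 7.48 in the Zeb2-KO-labelled arrays and 8.49, 8.04 and 8.47 in WT. The groups did not overlap, but the nearest arrays, Zeb2-KO replicate 1 and WT replicate 2, were only 0.28 apart. The levels were 7.56 ± 0.17 against 8.33 ± 0.25, a difference of -0.77 (SE 0.28), or 1.71-fold lower.

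Il10ra, the other ligand-binding chain that was lower, varied most within WT. It read 7.04, 5.86 and 6.55 in the Zeb2-KO-labelled arrays and 8.68, 6.90 and 7.60 in WT. WT replicate 2 was below Zeb2-KO replicate 1, so the groups overlapped. The levels were 6.48 ± 0.59 against 7.73 ± 0.89, a difference of -1.24 (SE 0.46). It was -0.77 without WT replicate 1, the highest array.

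Il6st read 6.78, 7.49 and 6.97 in the Zeb2-KO-labelled arrays and 6.43, 7.11 and 6.53 in WT. The groups overlapped, with WT replicate 2 above Zeb2-KO replicates 1 and 3. Its difference of 0.39 (SE 0.32) was close to the SD of 0.37 in each group, and leaving out Zeb2-KO replicate 2 gave 0.19 and leaving out WT replicate 2 gave 0.61. Jak2 read 7.17, 8.81 and 7.84 against 6.77, 7.34 and 6.92, at 7.94 ± 0.83 and 7.01 ± 0.30. Zeb2-KO replicate 2 stood highest, and Zeb2-KO replicate 1 was below WT replicate 2. The Jak2 difference was 0.93 (SE 0.40), or 1.90-fold, and 0.49 without Zeb2-KO replicate 2.

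**Figure D1:**
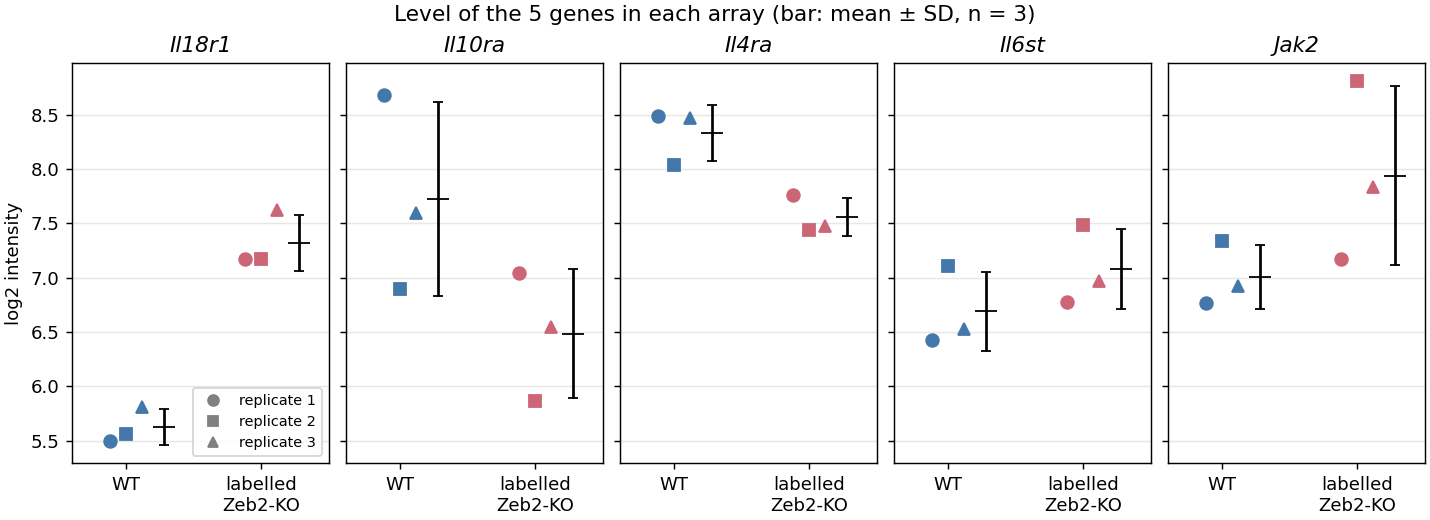
Log2 intensity (y axis) of Il18r1, Il10ra, Il4ra, Il6st and Jak2 in each array, with WT in blue and the Zeb2-KO-labelled arrays in red; symbols give the replicate number and black bars the mean ± SD of 3 arrays. The groups are apart in Il18r1 (gap 1.36) and Il4ra (gap 0.28) and overlap in the other 3 genes.

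The 5 genes also differed in how they followed the arrays themselves. The arrays were not alike in spread, and the interquartile range of their log2 values was 1.83 (Zeb2-KO replicate 1), 2.40 (replicate 2) and 2.11 (replicate 3), against 1.59, 2.03 and 1.77 for the WT arrays in the same order. Within both groups Il6st and Jak2 were highest in the array with the widest range and lowest in the narrowest, an order that 8.86% of all probe sets shared. Il10ra and Il4ra had the opposite order in both groups, as did 15.2% of all probe sets. Il18r1 had neither.

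With the array's range as a covariate the difference was 1.69 (SE 0.27) in Il18r1, nearly as without it. It was -0.53 (SE 0.21) in Il4ra, -0.35 (SE 0.30) in Il10ra and 0.19 (SE 0.26) in Jak2, and Il6st turned to -0.052 (SE 0.21). The ranges of the groups overlapped, at 1.83 to 2.40 against 1.59 to 2.03. Even so, the narrowest, middle and widest Zeb2-KO-labelled arrays (1.83, 2.11 and 2.40) each exceeded the WT array of that rank (1.59, 1.77 and 2.03). Range and label thus went partly together, and the covariate can take up part of the difference between the labels. In linear intensity Jak2 read 449 in the array of the widest range and 109 in that of the narrowest, and Il10ra read 58.3 and 409 in the same arrays.

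**Figure D2:**
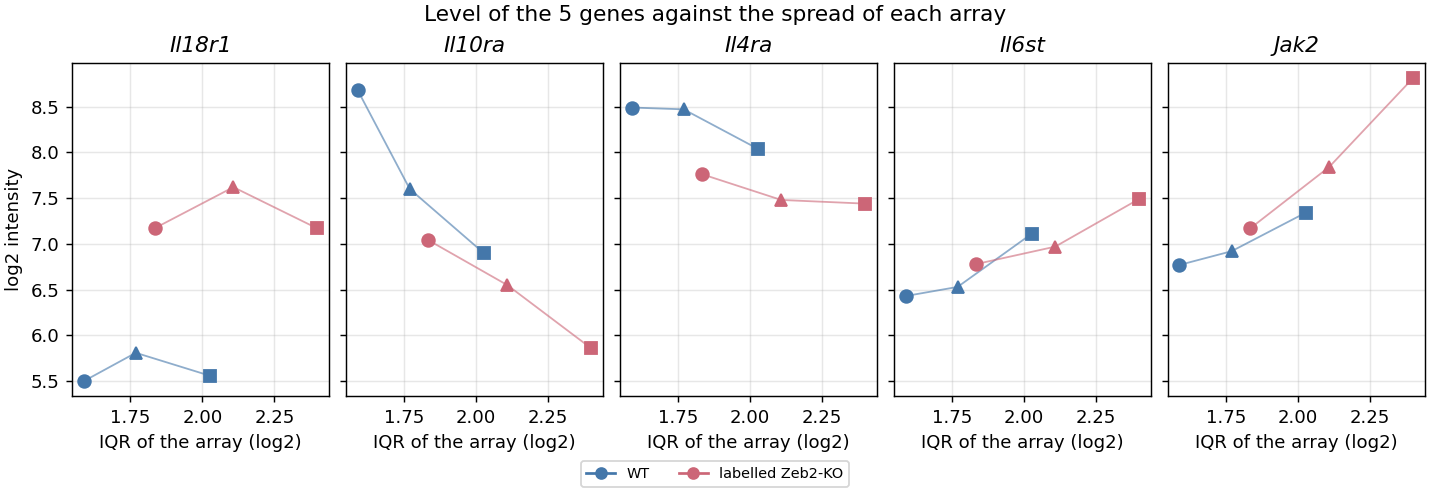
Log2 intensity of each gene (y axis) against the interquartile range (IQR) of log2 values of its array (x axis), WT in blue and Zeb2-KO-labelled arrays in red, with lines joining the 3 arrays of a group. Il10ra and Il4ra are lower and Il6st and Jak2 higher in wider arrays of each group, while the Il18r1 groups lie apart at 5.50 to 5.81 and 7.17 to 7.62.

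Correlations between the genes restate these orders within the groups and are no separate observation. Over deviations from the group means in the 6 arrays, Pearson's r was 0.89 between Il6st and Jak2, 0.84 between Il10ra and Il4ra, and -0.90 between Il10ra and Il6st. Il18r1 stood at -0.23 to -0.06 with the other 4. In each of the 6 arrays the genes were read from the same RNA and at the same array spread, and these values carry no test.

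The sample can hold other cells, so summed markers of these are given beside the genes. The 10 measured B cell markers were all lower, 4 of them at an unadjusted p under 0.05 (1.33% of all probe sets were lower at that p) and none past the adjusted threshold (limma), and their summed intensity was 959 to 1600 in the Zeb2-KO-labelled arrays and 1630 to 3290 in WT. Within both groups their sum put the arrays in the same order as Il10ra and Il4ra, which B cells and myeloid cells also express. Of all probe sets, 15.2% shared the order of this sum. That order is the reverse of the order by array range, so in these 6 arrays the marker sum and the array range cannot be told apart by rank. Monocyte, macrophage and dendritic cell markers summed to 2390 to 3390 against 3060 to 4930, with 11 of 12 lower and 3 at an unadjusted p under 0.05, none past the adjusted threshold. In bulk RNA, fewer cells of a type and less RNA per cell cannot be told apart, and the part of these markers in the receptor values was not tested.

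For Il18r1, the lymphocytes and basophils known to carry the receptor were looked at. The 6 measured NK and innate lymphoid markers summed to 251 to 608 against 257 to 294, with 2 higher and 4 lower. Nkg7, a cytotoxic granule gene, was one of the higher, at 7.83, 8.95 and 6.96 against 6.86, 6.96 and 6.58. Zeb2-KO replicate 2 was the high array for Nkg7. Ncr1, an activating receptor of NK cells, ran from 4.16 to 4.70 against 4.37 to 5.05. Of the 6 only Eomes had groups without overlap, and it was lower, by a difference of -0.41 (6.26% of all probe sets were lower without overlap). The 3 T cell markers summed to 175 to 403 against 276 to 960 and the 5 mast cell and basophil markers to 427 to 625 against 383 to 471. In each of these 3 lists the summed levels of the groups overlapped. Only 6 of 14, 3 of 12 and 5 of 11 listed markers were measured, and the part of such cells in the Il18r1 values was not tested.

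Beside Jak2 and Il6st, megakaryocyte and platelet markers summed to 3220 to 5820 in the Zeb2-KO-labelled arrays and 1110 to 1980 in WT, with 7 of 8 higher and 4 at an unadjusted p under 0.05 (5.69% of all probe sets were higher at that p). Erythroid markers summed to 3000 to 3420 against 962 to 1390, with 5 of 6 higher and 3 at an unadjusted p under 0.05, and again none of either list passed the adjusted threshold. Both lineages use Jak2, and their part in its values was not tested. Of the 12 measured gate and stem cell markers, 6 were higher and 6 lower. The groups did not overlap in 4 of the higher and 3 of the lower ones (6.9% and 6.26% of all probe sets). Of the gate's own markers, Kit, the stem cell factor receptor, and Slamf1 (CD150) were higher without overlap, by 0.53 and 1.3 (limma adjusted p = 0.673 for both). Both were lowest in WT replicate 1. Kit read 9.89 or above in the other 5 arrays, and Slamf1 read 5.76 in WT replicate 1 against 7.94 or above elsewhere. Cd48, a SLAM family antigen that SLAM gates commonly select against (the labels do not name it), read 6.79, 6.86 and 5.72 against 7.19, 7.70 and 7.55, lower without overlap by a difference of -1.02 (adjusted p = 0.656). The 5 neutrophil markers summed to 413 to 1410 against 320 to 374, but each of the 5 overlapped between the groups, and S100a9 alone read 10.16 in Zeb2-KO replicate 1. The 7 stromal and endothelial markers, all lower, summed to 629 to 789 against 855 to 1160.

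The other genes of these pathways were read from 8 lists of ligands, receptors, kinases, inhibitors and targets, of whose 150 genes 64 were measured. None passed an adjusted p of 0.05 in limma, and 4 lay below an unadjusted p of 0.05, 1 higher and 3 lower (6.25%). Over all probe sets that share was 7.02%, with 5.69% higher and 1.33% lower. With array weights, a fit that did not converge and called 978 of all probe sets (6.69%), Ifngr2 and Socs4 passed. Of the 64, 24 were higher (37.5%, against 44.6% of all probe sets) with a median difference of -0.14, against -0.089 over all probe sets. The groups did not overlap in 8 of 64 (12.5%), 1 higher and 7 lower. Over all probe sets that share was 13.2%, with 6.9% higher and 6.26% lower.

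Around Il18r1, 14 of 28 genes of the interleukin-18 and interleukin-1 family were measured, 7 higher and 7 lower, with a median of 0.079 (-0.078 without Zeb2-KO replicate 2 and -0.0094 without Zeb2-KO replicate 3). Its ligand Il18 read 4.51, 4.58 and 5.39 against 5.03, 4.38 and 4.15, a difference of 0.31 with overlapping groups (0.028 without Zeb2-KO replicate 3). The decoy Il18bp, which binds and blocks interleukin-18, stood at -0.29, and Myd88, the adaptor, at 0.30. Tab2, which links the receptor's ubiquitin signal to the kinase encoded by Map3k7, had the largest difference, 1.08 (adjusted p = 0.673), and its lowest array was WT replicate 1 at 6.63, without which it was 0.51. Il1a, the ligand interleukin-1 alpha, stood at 0.84, with 6.78 in Zeb2-KO replicate 2 and 4.93 or less in every other array, and at 0.13 without Zeb2-KO replicate 2. Sigirr, a receptor that dampens interleukin-1 and interleukin-18 signalling, read 7.15, 6.92 and 6.97 against 7.64, 7.35 and 7.67. It was lower without overlap, by a difference of -0.53 (adjusted p = 0.673). Il18rap, the second chain of the interleukin-18 receptor, was not analysed here.

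In the family of Il10ra, 8 of 9 measured members of 16 were lower, with a median of -0.38 (-0.094 with the array's range as a covariate, -0.22 without WT replicate 1 and -0.25 without Zeb2-KO replicate 2). Il10rb, the partner chain of Il10ra, stood at -0.66 (adjusted p = 0.673), with 7.01 in WT replicate 2 and 5.62 or less in every other array, and was -0.085 without WT replicate 2. Ifngr2, the signalling chain of the interferon-gamma receptor, which binds Jak2, read 6.40, 6.38 and 6.35 against 7.39, 6.38 and 8.00. The Zeb2-KO-labelled arrays were close together and WT replicate 2 lay among them, so the difference of -0.88 (adjusted p = 0.673) came from WT replicates 1 and 3. Ifngr1, the ligand-binding chain of that receptor, was the 1 member higher, at 0.36. Il22ra1 was the 1 member without overlap, lower by a difference of -0.38 (adjusted p = 0.673). Its nearest arrays, Zeb2-KO replicate 1 and WT replicate 2, both read 6.73 when rounded. Il20rb and Ifnlr1, receptor chains for interleukin-20 and type III interferon, stood at -0.42 and -0.41, and at -0.23 and -0.22 without WT replicate 1 and -0.053 and -0.094 with the array's range as a covariate.

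In the family of Il4ra, 8 of 20 genes were measured, 3 higher and 5 lower, with a median of -0.14. Il9r, Il2rb and Il21r, receptor chains that pair with the common gamma chain, stood at -0.55, -0.45 and -0.20, and Il15 and Il15ra, the interleukin-15 ligand and its receptor chain, at 0.45 and 0.50. All groups in this list overlapped. The median moved with single arrays, to 0.033 without WT replicate 1, 0.017 without Zeb2-KO replicate 2, -0.23 without WT replicate 2 and -0.29 without Zeb2-KO replicate 1. The common gamma chain Il2rg and the chain Il13ra1, the direct partners of Il4ra, were not analysed here. Of the gp130 family, 2 of 18 were measured, Cntfr, the receptor for ciliary neurotrophic factor, at -0.22 and Ctf1, the ligand cardiotrophin-1, at 0.013. Il6ra, Lifr and Osmr, the chains that pair with gp130, were not analysed here.

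Of the kinases and STATs 3 of 10 were measured, all higher, with a median of 0.21 (-0.26 with the array's range as a covariate, -0.037 without WT replicate 1 and 0.42 without WT replicate 2). Jak1, the kinase of all 3 Janus-coupled chains, read 9.35, 9.60 and 9.39 against 8.84, 9.20 and 9.21. Its groups did not overlap, with a difference of 0.36 (adjusted p = 0.673). Stat3, the factor downstream of Il10ra and gp130, stood at 8.00 ± 0.14 against 7.98 ± 0.37, a difference of 0.020. It was -0.19 with quantile normalization. Stat4, used by the interleukin-12 receptor, stood at 0.21 with 8.11 in WT replicate 2.

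Among the receptors and ligands that signal through Jak2, 5 of 6 measured of 20 were lower, with a median of -0.31 (-0.12 with the array's range as a covariate). Il5ra, the interleukin-5 receptor chain, stood at -0.51, Il23r at -0.40 and Csf3, which encodes G-CSF, at -0.36 (adjusted p = 0.673 for all). Il23r alone had no overlap, at 5.05, 4.90 and 4.81 against 5.50, 5.35 and 5.10. Csf2rb was not analysed here.

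Inhibitors of the pathway were mixed, with 6 of 14 measured of 21 higher and a median of -0.20 (-0.025 without Zeb2-KO replicate 1). The phosphatase genes differed in direction. Ptprc, which encodes CD45, stood at 9.79 ± 0.26 against 10.54 ± 0.11, and Ptpn6, which encodes SHP-1, read 8.87, 8.74 and 8.87 against 9.68, 9.51 and 9.25. Both were lower without overlap, by -0.75 (adjusted p = 0.662) and -0.65 (adjusted p = 0.673), and neither passed. Ptpn1 stood at 0.71 (adjusted p = 0.673), with overlapping groups. Socs2 and Socs3, feedback inhibitors switched on by STATs, stood at -0.30 and -0.27, with Zeb2-KO replicate 1 of Socs3 (7.11) above WT replicates 2 and 3. Socs5 was lower without overlap, at -0.42.

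Of the STAT targets 8 of 18 were measured, 2 higher and 6 lower, with a median of -0.14 (0.0048 without WT replicate 1 and 0.037 without Zeb2-KO replicate 3). Myc stood at 0.46 (0.0054 without WT replicate 1) and Pim1, a survival kinase, at 0.36, and Bcl3 at -0.31. Ccnd1, which encodes cyclin D1, read 6.85, 6.91 and 6.87 against 7.42, 7.49 and 7.11. Its groups did not overlap, with a difference of -0.47 (adjusted p = 0.673).

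**Figure D3:**
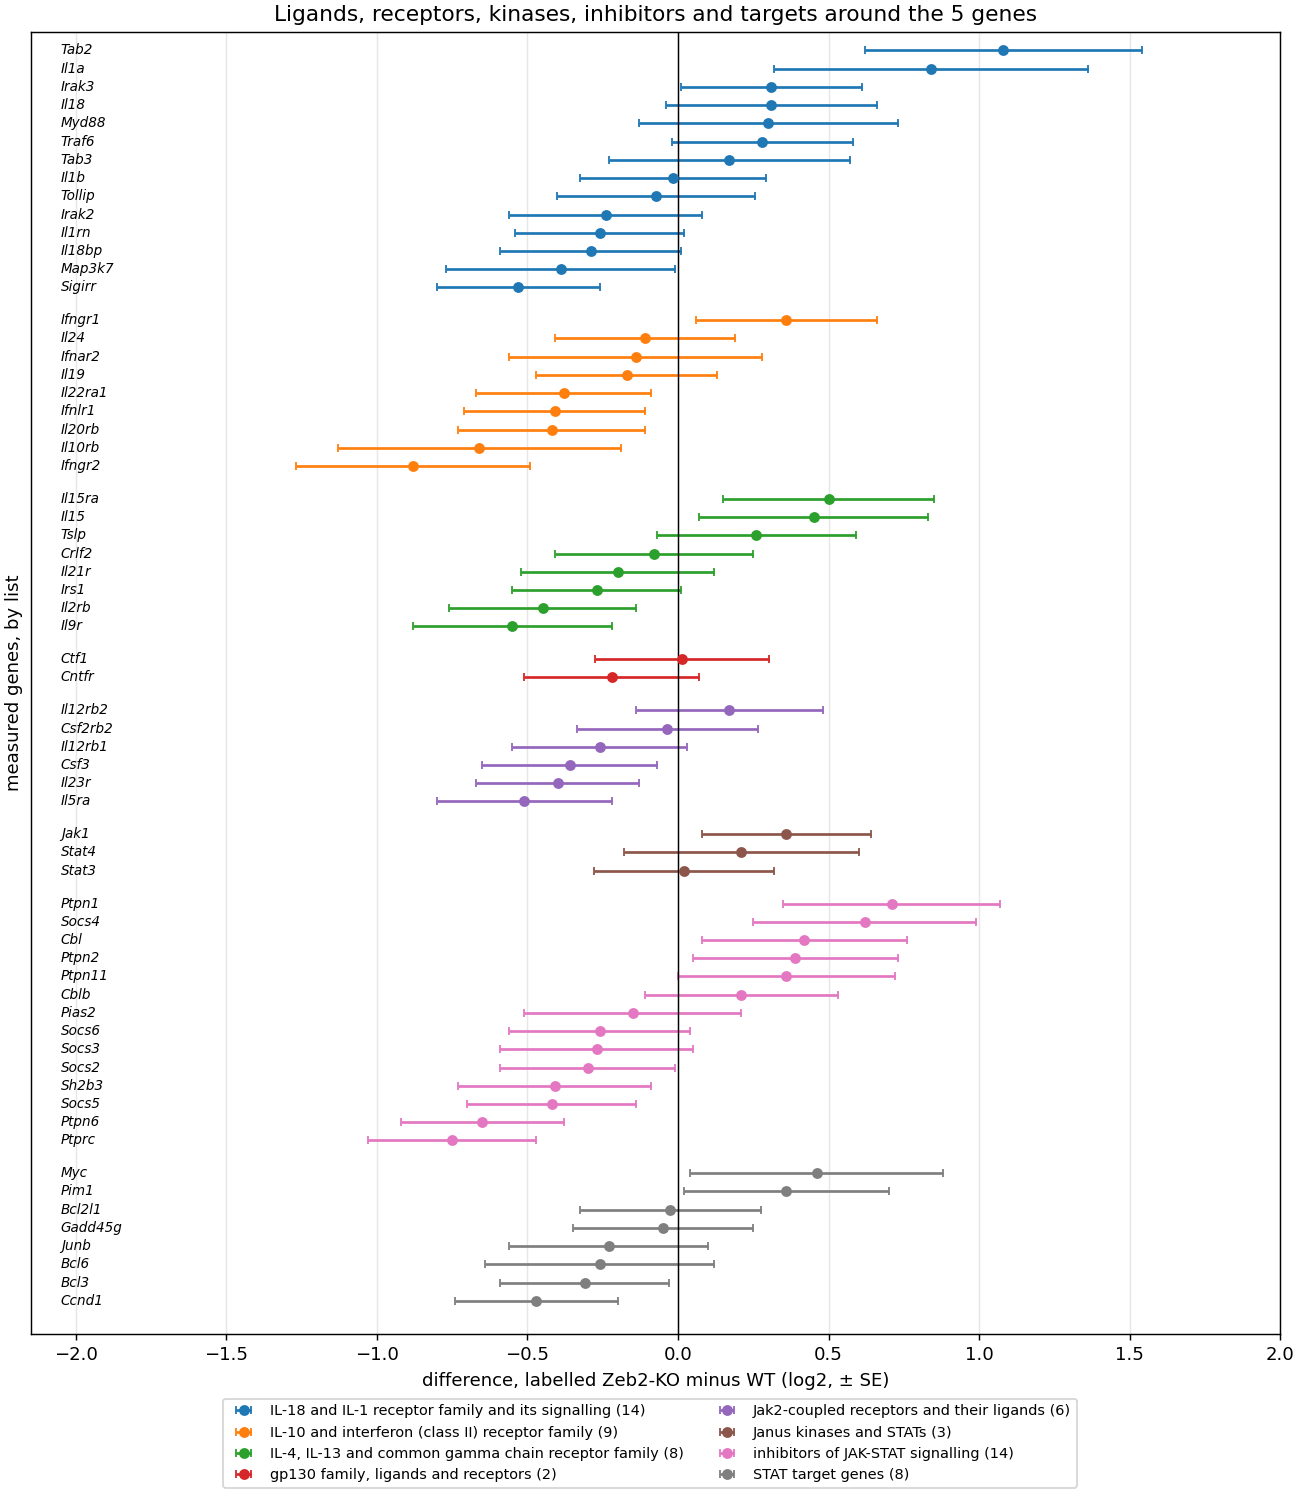
Difference of the Zeb2-KO-labelled arrays minus WT (x axis, log2, bars are the SE of the limma fit) for the 64 measured genes of the 8 lists, coloured by list and sorted within each. The points lie on both sides of 0, from Tab2 at 1.08 to Ifngr2 at -0.88.

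Genes beside the 5 in the genome were read in the order of the RefSeq table, 5 on each side. For Il18r1, which lies in the cluster of interleukin-1 receptor genes on chromosome 1, none of the 10 neighbours was measured. For the other 4 genes 13 neighbours were measured, and none lay below an unadjusted p of 0.05 or passed the adjusted threshold. Rcl1, near Jak2 on chromosome 19 and involved in ribosome assembly, stood at 0.66, with 8.27 in Zeb2-KO replicate 2, the array that was also highest for Jak2. Il21r, next to Il4ra on chromosome 7, stood at -0.20, and the 3 measured near Il10ra on chromosome 9 stood between -0.42 and -0.33.

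The genes whose pattern over the 6 arrays was most like each of the 5 were taken by Pearson's r among 4809 (Il18r1) or 4808 (the other genes) probe sets whose mean was no lower than the median of all and whose SD over the arrays was at least 0.3. For Il18r1 these were Runx3, a transcription factor of lymphocytes, at r = 0.993, Mprip (0.985) and Tmem123 (0.984). Runx3 read 8.10, 8.13 and 8.34 against 7.47, 7.40 and 7.63. Mprip stood at 8.60 against 7.60 and Tmem123 at 8.65 against 8.01. For Il4ra they were Sigirr (0.999), the kinase gene Stk17b (0.998) and H2al2a (0.997), with Stk17b at a difference of -0.92. For Il10ra they were Mir185 (0.991), Tff3 (0.990) and Foxb2 (0.990). For Il6st they were Dym (0.993), Zcchc8 (0.993) and Rrn3 (0.992), and for Jak2 Rab6a (0.992), Wdr75 (0.991) and Cd99l2 (0.989). With so many probe sets and 6 arrays, r close to 1 is a ranking of likeness and not a measure of association, and whether the groups of such a gene lie apart is set by the choice.

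**Figure D4:**
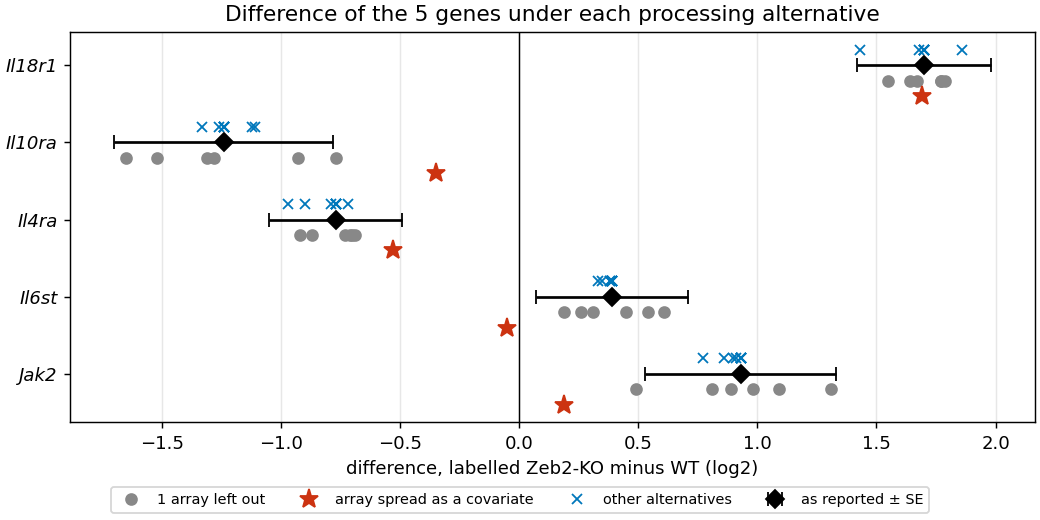
Difference of the Zeb2-KO-labelled arrays minus WT (x axis, log2) for the 5 genes as reported (diamond, bar is the SE), with 1 array left out (grey), with the array's range as a covariate (star) and under the other alternatives (crosses). Il18r1 stays between 1.43 and 1.86, while the stars of Il10ra (-0.35), Jak2 (0.19) and Il6st (-0.052) lie nearest to 0.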

How the data were processed

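Amplified, biotin-labelled RNA of the sorted cells was read on Affymetrix arrays, per the labels' protocols. In the deposited table every probe set has an intensity on each array, made with RMA per the submitters' processing notes (version and software not given in the sources used here). The values are linear, so log2 was taken. Of 20220 rows, 5610 with identifiers below the first annotated one were left out as array controls, and 14610 were tested. Genes were named from probe sets with 1 symbol in the platform annotation (11229), of which 11184 matched RefSeq by gene identifier.

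The comparison used lmFit and eBayes of limma 3.58.1 (R 4.3.3, 4 residual degrees of freedom), and p-values were adjusted over the whole table by Benjamini-Hochberg. SD is over 3 arrays and SE is limma's. The number of arrays limits the precision. For lists and neighbours the brightest probe set of a gene was used. Named are the 5 genes, their direct partners where measured, the list members with the smallest p, and the 3 genes most like each in pattern (probe sets with a mean of at least 6.63 and an SD of at least 0.3); others were named after their values were seen. The 5 genes and the lists were chosen with earlier results of these data known. The fit was tested on simulated data with independent noise, without the differences in spread between the arrays. The planted differences were larger than those of the 5 genes, so the simulation does not bear on differences of their size. Alternatives were filters, normalizations, variance priors, array weights, a replicate block, the array's interquartile range as a covariate, a pseudocount of 16 and leaving out each array. Protein sequences were not used here.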

Additional observations from a re-analysis of the deposited data

How the results depend on the processing

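The sign of Il18r1, Il10ra, Il4ra and Jak2 was kept in every alternative run (15 for Il18r1, whose mean lies below the filter on dim probe sets, and 16 for the others). Leaving the spread covariate aside, the differences ran from 1.43 to 1.86 in Il18r1, -1.65 to -0.77 in Il10ra, -0.97 to -0.69 in Il4ra, 0.19 to 0.61 in Il6st and 0.49 to 1.31 in Jak2. The lowest value of Il18r1, 1.43, came with a pseudocount of 16, which by construction damps dim probe sets. With the array's range as a covariate the values were -0.35 (Il10ra), -0.53 (Il4ra), 0.19 (Jak2) and, reversed, -0.052 (Il6st); the cause was not tested.

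The number of probe sets past the adjusted threshold, 2 as reported, was 0 with a replicate block, 1 with the spread covariate or without dim probe sets, 978 with array weights (for which limma did not converge), and 2 to 18 with 1 array left out (10, 18 and 9 without WT replicate 1, 2 or 3 and 5 without Zeb2-KO replicate 1). The block left every difference as it was and brought no list gene past the threshold. The numbers were not taken as pairs: deviations of same-numbered arrays correlated at 0.36, 0.41 and 0.047, although every array correlated best with its own number.

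List medians moved as follows. With the spread covariate they were -0.094 (class II receptors), -0.082 (common gamma family), -0.12 (Jak2-coupled receptors) and -0.19 (inhibitors). With that covariate the other lists changed sign, to -0.26 (kinases and STATs), 0.16 (gp130 family), 0.025 (STAT targets) and -0.024 (interleukin-18 family). The common gamma median was -0.039 with array weights and -0.17 with quantile normalization, and the interleukin-18 median was -0.18 without dim probe sets. With 1 array left out the medians ran from -0.46 to -0.22 (class II receptors, reported -0.38), -0.29 to 0.033 (common gamma family, -0.14), -0.29 to 0.037 (STAT targets, -0.14), -0.037 to 0.42 (kinases and STATs, 0.21), -0.24 to -0.025 (inhibitors, -0.20), -0.078 to 0.17 (interleukin-18 family, 0.079), -0.21 to 0.022 (gp130 family, -0.10) and -0.41 to -0.23 (Jak2-coupled receptors, -0.31). The sign of 5 of the 8 was thus not kept. Array weights called 1 class II receptor (Ifngr2) and 1 inhibitor (Socs4), where the reported fit called none, and Zeb2 itself (1.67, adjusted p = 0.0181). The difference of Zeb2, 1.48 as reported, was 0.77 with the spread covariate and ran from 1.2 to 1.9 with 1 array left out.

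Of 42 other genes named by the rule given above, 33 kept their sign in all alternatives run on them, and 34 moved by over 1.5 times in at least 1 of them. Genes named after their values were seen are not in these counts. With the spread covariate Cd99l2 (-0.0097), Cntfr (0.077), Il15ra (-0.016), Myc (-0.27), Rrn3 (-0.052), Socs3 (0.029), Stat3 (-0.26) and Stat4 (-0.37) reversed. Stat3 also reversed with array weights (-0.036), quantile normalization (-0.19), and without WT replicate 1 (-0.19) or Zeb2-KO replicate 2 (-0.046), and Stat4 without WT replicate 1 (-0.037). Stat4 ran up to 0.65 without WT replicate 2. Ctf1 reversed with centred arrays (-0.0043) and without WT replicate 3 (-0.13) or Zeb2-KO replicate 1 (-0.14), and was 0.14 without WT replicate 1. The causes were not tested.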
